A study of Mus musculus with 2 samples.

Results

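The genes examined here are those of the small nucleolar RNAs (snoRNAs), taken as all listed genes whose symbol starts with *Snora* or *Snord* and a digit, irrespective of case. As 634 such genes were listed, more than the limit of 300 set for the choice, only those on chromosomes 2, 7, 11 and 12 were used, which left 175 of the 29311 listed genes. Of these, 98 carry a *Snora* name and belong to the H/ACA class, and 77 carry a *Snord* name and belong to the C/D class. The names cover 79 families, and 435 snoRNA genes of these families and others are annotated on the same 4 chromosomes.

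snoRNAs are short, stable RNAs of the nucleolus that pair with a target RNA and bring a modifying enzyme to it. C/D snoRNAs direct 2′-O-methylation by fibrillarin, and H/ACA snoRNAs direct pseudouridylation by dyskerin, mostly on ribosomal RNA. Most are cut out of introns of other genes after splicing, often genes for ribosomal proteins or translation factors, so the host gene and the snoRNA share a transcript. A few families lie in imprinted arrays with many copies, and 2 of these, *Snord115* and *Snord116* of the Prader-Willi region, are known mainly from neurons.

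The study sequenced total RNA, depleted of ribosomal RNA, in strand-specific libraries of 2 samples without replicates. The first sample came from wild-type embryonic stem (ES) cells of strain E14, a single cell line kept without feeder cells in the presence of LIF. The second came from wild-type forebrain of B6CBAF1/J embryos at day E10.5, a dissected tissue that holds several cell types. Values are the deposited RPKM, which are per kb of exon, and no statistical test was possible with 1 sample per group. Unless stated otherwise, ranges in brackets are therefore exact 95% intervals of the counting of reads, and they do not cover differences between cultures, embryos or libraries.

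Reads were inferred from the values, since in a gene with 1 kb of exon 1 read is worth 1.22 RPKM in ES cells and 0.819 in forebrain. In shorter genes it is worth proportionally more. The libraries held 42784083 and 59790476 inferred reads on genes, and the forebrain library was thus the deeper. For the snoRNA genes, 3 reads, taken as the lowest level that could be interpreted, amount to 15.4 to 56.4 RPKM in ES cells and to 10.3 to 37.8 in forebrain, depending on length. All 6 ES cell markers were higher in the ES cells and all 6 forebrain markers in the forebrain, where *Lhx2*, at 876.64, was listed at 0 in ES cells. The forebrain sample also held RNA of other cells. All 4 blood markers were over 2-fold higher in it, with a summed RPKM of 673751.31 against 275.74, as were all 4 markers of head mesenchyme (5563.36 against 42.41) and 2 of 3 endothelial markers, *Cdh5* (325.70 against 1.53) and *Kdr* (601.26 against 24.99). *Pecam1*, the other, was higher in ES cells (316.51 against 551.14), so that all 3 summed to 1243.47 against 577.66. Their part in the values below was not tested, and fewer cells of a type and less RNA per cell cannot be told apart in bulk RNA.

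The sequences that the results turn on are shown first, 5′ to 3′, as read from the NCBIM37 genome at the annotated position. Capitals mark the C box (TGATGA, within the first 20 bases) and the D box (CTGA, within the last 15 bases) in C/D genes, and the ACA trinucleotide 3 bases before the end in H/ACA genes. The C/D genes are those with the highest level, with the largest difference between the samples and from the imprinted arrays.
Snord15b, chr7:106628073-106628217, minus strand: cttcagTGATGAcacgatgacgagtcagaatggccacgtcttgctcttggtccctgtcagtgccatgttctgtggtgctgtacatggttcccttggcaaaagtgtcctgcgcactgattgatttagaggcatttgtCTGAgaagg
Snord34, chr7:52381971-52382040, minus strand: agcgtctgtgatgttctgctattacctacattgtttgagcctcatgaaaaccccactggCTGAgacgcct
Snord33, chr7:52382234-52382317, minus strand: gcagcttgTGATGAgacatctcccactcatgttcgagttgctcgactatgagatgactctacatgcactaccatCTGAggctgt
SNORD113, the most abundant copy, chr12:110884339-110884412, plus strand: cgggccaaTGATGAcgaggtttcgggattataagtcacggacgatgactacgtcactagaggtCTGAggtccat
Snord64, chr7:67123694-67123760, minus strand: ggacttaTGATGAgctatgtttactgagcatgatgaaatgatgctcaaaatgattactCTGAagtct
SNORD115, the listed copy, chr7:66599443-66599521, minus strand: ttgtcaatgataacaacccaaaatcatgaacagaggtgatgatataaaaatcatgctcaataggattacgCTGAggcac
SNORD116, 1 of the listed copies, chr7:67042047-67042140, minus strand: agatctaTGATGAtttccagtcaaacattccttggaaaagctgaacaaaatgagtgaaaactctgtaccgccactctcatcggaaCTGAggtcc

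The H/ACA genes shown are an abundant one, a gene and a copy of the *Snora17* family, a pair of near-identical *SNORA51* genes with the largest differences among genes with at least 50 reads over both samples, and the gene with the lowest ratio among those with enough reads.
Snora52, chr7:148634702-148634838, plus strand: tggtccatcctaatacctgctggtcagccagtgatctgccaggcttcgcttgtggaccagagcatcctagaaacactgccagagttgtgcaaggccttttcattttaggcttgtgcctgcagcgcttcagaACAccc
Snora17 of Snhg7, chr2:26494710-26494841, minus strand: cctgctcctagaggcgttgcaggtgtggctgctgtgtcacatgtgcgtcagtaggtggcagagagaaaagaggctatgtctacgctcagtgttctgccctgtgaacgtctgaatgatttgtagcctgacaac
SNORA17, a copy with few reads, chr12:57353302-57353431, minus strand: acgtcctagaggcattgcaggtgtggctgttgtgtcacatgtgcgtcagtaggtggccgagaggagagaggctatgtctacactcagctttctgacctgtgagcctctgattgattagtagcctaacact
SNORA51 of Nop56, chr2:130101973-130102105, plus strand: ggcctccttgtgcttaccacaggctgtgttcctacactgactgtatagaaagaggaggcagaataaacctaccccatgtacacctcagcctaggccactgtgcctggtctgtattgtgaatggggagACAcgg
SNORA51, without a host, chr2:53952841-53952973, plus strand: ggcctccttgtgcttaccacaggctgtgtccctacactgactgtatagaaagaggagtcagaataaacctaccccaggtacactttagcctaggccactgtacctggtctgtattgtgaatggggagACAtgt
SNORA79, chr12:92811870-92812012, minus strand: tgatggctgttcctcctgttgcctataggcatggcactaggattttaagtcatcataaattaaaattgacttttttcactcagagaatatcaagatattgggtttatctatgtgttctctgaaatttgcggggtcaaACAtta

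Across the members, 40 of 77 C/D genes (51.95%) had both boxes in these windows, against 0 of 98 H/ACA genes and 0 of 77 windows of the same length placed 200 bases downstream of the C/D genes. The ACA stood 3 bases before the end in 49 of 98 H/ACA genes (50%), against 0 of 77 C/D genes and 4 of 98 downstream windows (4.082%). All boxes were searched on the strand of the gene only. As the capitals show, *Snord34* has a D box but no exact C box, and the *Snora17* sequences lack an ACA at the searched position. Both *Snora17* sequences shown have an ACA slightly nearer to the annotated end, so a miss at the searched position does not mean that the ACA is absent. In the H/ACA class the ACA was found in 33 of 46 genes with at least 100 reads over both samples (71.74%) and in 16 of 52 with fewer (30.77%). The 52 include 21 *SNORA17* genes, of which 0 had an ACA at that position, so this family weighs on the contrast. In the C/D class, both boxes were found in 26 of 47 genes with at least 100 reads (55.32%) and in 14 of 30 with fewer (46.67%).

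snoRNA genes were detected in both samples and were higher in ES cells than in E10.5 forebrain in nearly all cases. Of the 175 members, 164 were above 0 in ES cells and 161 in forebrain, close to the 90.9% and 92.1% of all listed genes, and 139 had at least 3 reads in ES cells and as many in forebrain. Of the 123 genes with at least 20 reads over both samples, 120 were higher in ES cells and 3 in forebrain. At a fold of 2, taken on RPKM + 1, 100 of the 123 (81.3%) were called higher in ES cells, whereas 19.5% of all listed genes with as many reads were. None was called higher in forebrain, where 27.3% of all genes were. At a fold of 4, 31 genes were higher in ES cells, against 9.19% of all genes. The median log2 ratio of the 123 genes was 1.54 (order-statistic interval over genes 1.34 to 1.72), whereas it was -0.10 over all genes. Over all 175 members, those with few reads included, the median was 1.42.

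**Figure D1:**
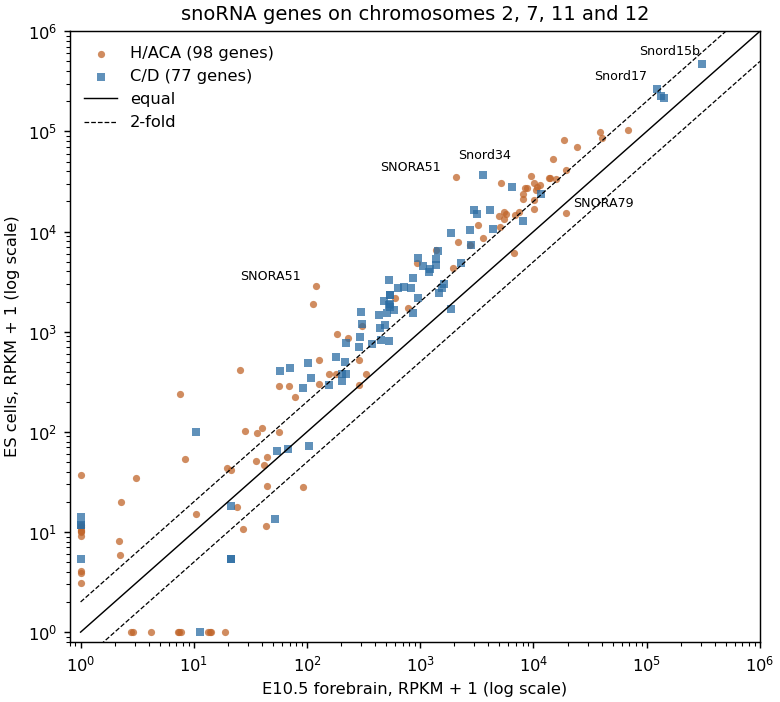
RPKM + 1 of each of the 175 snoRNA genes in ES cells (vertical axis) and E10.5 forebrain (horizontal axis), both on log scales, with H/ACA genes as circles and C/D genes as squares. The solid line marks equal values and the dashed lines a fold of 2; above about 100 RPKM nearly all points lie on the ES cell side, and no gene with at least 20 reads lies beyond the lower dashed line.

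The same count over genes with at least 20 reads in each sample gave 87 of 106 called higher in ES cells and 0 in forebrain, where all genes gave 16.3% and 20.5%. In reads, the members took 0.724% of all reads on genes in ES cells (309926 reads) and 0.380% in forebrain (227469 reads). Their summed RPKM was 2638873.58 and 1262542.75, a ratio of 2.09. Among genes with at least 20 reads over both samples, of which 19.5% were called over all genes, the difference was found on each chromosome. Called were 27 of 29 members on chromosome 2, 22 of 30 on chromosome 7, 30 of 34 on chromosome 11 and 21 of 30 on chromosome 12.

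snoRNA genes on the other chromosomes gave a similar picture, with 177 of 250 (70.8%) called higher in ES cells, 5 called higher in forebrain and a median log2 ratio of 1.35. Other short genes differed less between the samples. miRNA genes were called higher in ES cells in 36.3% of 256 cases, with a median of 0.45, and genes of small nuclear RNAs in 22.9% of 153, with a median of 0.35. All non-snoRNA genes with up to 200 bp of exon gave 31.5% of 613 and a median of 0.41. Called higher in forebrain were 23.8% of the miRNA genes, 6.54% of the small nuclear RNA genes and 14.2% of these short genes, beside 27.3% of all genes. By their median, short genes were thus shifted to ES cells, and by less than the snoRNA genes. Their summed RPKM was nearly equal in both samples, with a ratio of 1.02, where the members had 2.09. The part of the size of the sequenced fragments in these values was not tested.

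**Figure D2:**
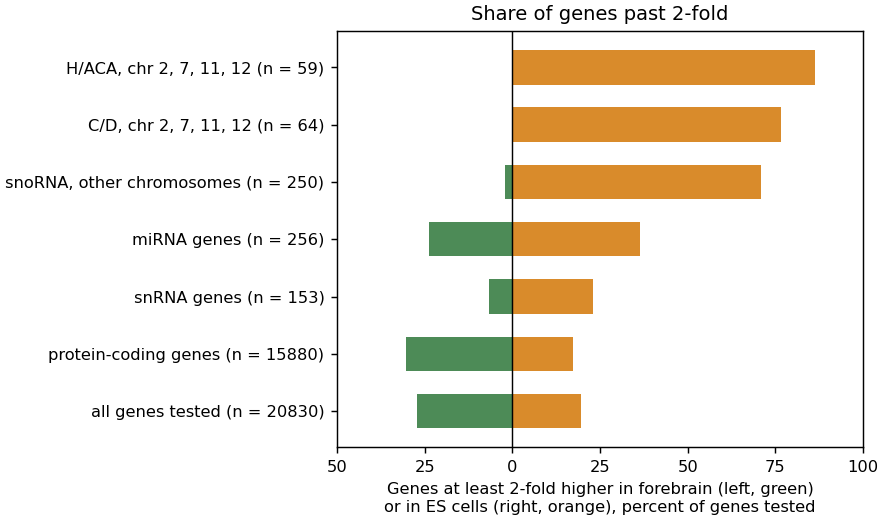
Share of genes that were at least 2-fold higher in ES cells (orange, to the right) or in E10.5 forebrain (green, to the left), in percent of the genes with at least 20 reads over both samples (n in brackets). The H/ACA and C/D bars reach 86.4% and 76.6% on the ES cell side with nothing on the forebrain side, whereas protein-coding genes reach 17.2% and 30.3%.

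Both classes contributed to the difference. Of the H/ACA genes, 51 of 59 (86.4%) were called higher in ES cells, and of the C/D genes 49 of 64 (76.6%), beside the 19.5% of all genes. The median log2 ratio was 1.40 (1.28 to 1.65) in H/ACA genes, with quartiles of 1.12 and 1.89, and 1.68 (1.29 to 1.82) in C/D genes, with quartiles of 1.02 and 2.08. The ranges given with these medians are order-statistic intervals over genes, and they overlapped. Genes are not replicates of a sample, so these intervals do not test a difference between the classes. A fold of 4 was passed by 18 of 64 C/D and 13 of 59 H/ACA genes, beside 9.19% of all genes. The genes nearest to the fold of 2 were *Snord104*, a *SNORD113* copy and *SNORA26* on the inner side, at 2.027 to 2.046, and *SNORD62* and a pair of *SNORD113* copies on the outer side, at 1.833 to 1.884.

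The classes differed in level per length. Among genes with at least 20 reads, the median RPKM of H/ACA genes was 13397.13 in ES cells and 5079.68 in forebrain, and that of C/D genes 2304.18 and 673.81. The H/ACA median was thus 5.81 times the C/D median in ES cells and 7.54 times in forebrain. H/ACA genes are longer, with a median of 131 bp (range 80 to 184), whereas C/D genes have a median of 75 bp (range 65 to 238). Within each class, length and the ES cell level were only weakly related (Spearman's rho across genes 0.26 over 59 H/ACA and 0.17 over 64 C/D genes). Between the classes, length and class go together, so their parts in the gap between the medians cannot be told apart. The order of the medians does not hold over all listed genes, of which 39 H/ACA and 13 C/D genes had fewer than 20 reads. The medians over all 98 and all 77 were 395.59 and 1671.82 in ES cells and 140.81 and 532.41 in forebrain. By summed RPKM, C/D genes came first in both samples, with 1461711.92 against 1177161.66 in ES cells and 793477.24 against 469065.51 in forebrain. The ratio of the sums was 2.51 for H/ACA and 1.84 for C/D genes.

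The C/D sums rested on few genes. *Snord15b*, in the gene of the ribosomal protein Rps3 on chromosome 7, had the highest value of all members, 472046.26 in ES cells and 309791.06 in forebrain. It was followed by *Snord17* in *Snx5* on chromosome 2, with 263779.17 and 123314.31. *Snord15a*, which also lies in *Rps3*, stood at 224903.57 and 133035.68. *Snord118*, the U8 snoRNA, which takes part in the processing of the large-subunit rRNA and has no host gene, stood at 215483.09 and 142518.59. These are the 4 highest members in both samples, with *Snord118* in second place in forebrain, and their ratios lie below the median of the C/D class. ES cells exceeded forebrain 1.52-fold (1.51 to 1.54) for *Snord15b*, 2.14-fold (2.11 to 2.17) for *Snord17*, 1.69-fold (1.66 to 1.72) for *Snord15a* and 1.51-fold (1.49 to 1.54) for *Snord118*. Over both classes, the 5 highest members are these 4 and the H/ACA gene *Snora23*. They held 48.5% of the summed RPKM of all 175 members in ES cells and 61.6% in forebrain. Over the 20 highest members, 16 were called higher in ES cells, beside 19.5% of all genes, and the median log2 ratio was 1.32.

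Among H/ACA genes the highest was *Snora23* in *Ipo7*, with 102380.34 in ES cells and 68772.38 in forebrain, 1.49-fold (1.46 to 1.52). *Snora52* in *Rplp2*, the gene of a ribosomal stalk protein, reached 98520.43 and 38793.17, 2.54-fold (2.46 to 2.62). *SNORA70*, which shares the host *Snx5* with *Snord17*, reached 86754.27 and 40308.12. *SNORA74* on chromosome 7, which has no annotated host, fell further apart between the samples, with 82686.90 and 18508.15, a 4.47-fold difference (4.28 to 4.66). *Snora43*, in the non-coding host *Snhg7*, and *SNORA3*, in the ribosomal protein gene *Rpl27a*, followed with 69993.47 and 24033.51, and with 52816.60 and 14938.94. Of these, only *Snora23* stayed under a fold of 2.

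The largest differences among genes with at least 50 reads over both samples were seen in the *SNORA51* family. The copy within *Nop56* on chromosome 2, whose host encodes a core protein of C/D particles, stood at 35415.86 in ES cells and 2048.75 in forebrain, 17.3-fold higher in ES cells (15.5 to 19.4). A copy at chr2:53952841-53952973, without host, stood at 2885.41 and 118.04 (314 and 19 reads), a 24.4-fold difference (15.4 to 41.2). A copy on chromosome 11 stood at 288.26 and 55.85 (31 and 9 reads), 5.16-fold (2.40 to 12.3). As seen from the sequences above, the first pair share 93.98% of their bases, and the third copy is 90.98% identical to the first. The *Nop56* copy held 91.8% of the summed RPKM of these copies in ES cells and 92.2% in forebrain, and reads that match more than 1 copy cannot be assigned to 1 of them.

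The other snoRNA genes of *Nop56* differed less between the samples. *Snord110* lies in an intron, whereas *SNORA51*, *SNORD56* and *Snord57* overlap an annotated exon of *Nop56*, so that reads of the host cannot be told apart from theirs. *Snord110* stood at 2298.10 and 542.04, *SNORD56* at 1482.48 and 432.95, and *Snord57* at 2814.78 and 716.70. Their log2 ratios were 2.08, 1.77 and 1.97, whereas that of *SNORA51* was 4.11 and that of the host 1.13 (7842.80 and 3584.33). The interval of the *SNORA51* ratio lies above those of these 3 C/D genes, of which the highest upper bound is 6.10-fold.

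*Rpl13a*, the gene of a large-subunit ribosomal protein, carries 4 C/D genes, *Snord32a*, *Snord33*, *Snord34* and *Snord35a*, and several of these RNAs are known for roles in the response to metabolic stress. *Snord34* stood at 36782.99 in ES cells and 3592.29 in forebrain, 10.2-fold higher (9.08 to 11.6), the largest difference of all C/D genes with at least 50 reads. *Snord33* stood at 16263.70 and 2974.08, 5.47-fold (4.81 to 6.23). *Snord32a* stood at 27771.06 and 6444.16, 4.31-fold (3.94 to 4.72), and *Snord35a* at 6348.51 and 1419.76, 4.47-fold (3.72 to 5.395). The interval of *Snord34* did not overlap those of its 3 neighbours, and *Snord33* did not overlap *Snord32a*. *Snord35a* lies in an intron, whereas *Snord32a*, *Snord33* and *Snord34* overlap an annotated exon of *Rpl13a*. Reads of the host cannot be told apart from those of the latter genes, and their part in these ratios was not tested. The host was 2.93-fold higher in ES cells (10734.92 and 3665.24).

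Other large differences concerned *SNORA25* on chromosome 11 without host, with 1890.73 and 112.79 (195 and 17 reads, 16.8-fold, 10.2 to 29.4), and *SNORA76* on chromosome 11, with 30598.55 and 5120.83, 5.98-fold (5.54 to 6.45). A second *SNORA25* gene, within *Gm11659*, stood at 6544.80 and 1368.02, 4.78-fold (4.11 to 5.59), and it is 98.5% identical to a gene on chromosome 9. Among C/D genes, *SNORD24* in *Rpl7a* stood at 3266.65 and 531.30, 6.15-fold (4.47 to 8.61). *Snord95* in *Gnb2l1*, which encodes the ribosome-associated protein Rack1, stood at 5422.09 and 945.57, 5.73-fold (4.46 to 7.44). *Snord95* overlaps an annotated exon of this host, which stood at 42695.43 and 26004.31, so reads of both cannot be told apart. A pair of H/ACA genes had large ratios on under 50 reads. *SNORA76* in *Gpr107*, with the largest log2 ratio of the 123 genes (4.96), had 24 reads in ES cells and 1 in forebrain, and a *SNORA71* gene in *Snhg11* (4.01) had 45 and 4.

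Only 3 genes with at least 20 reads were higher in forebrain, and all by less than 1.3-fold. *SNORA79*, in an intron of the transcription factor gene *Gtf2a1* on chromosome 12, stood at 15487.09 in ES cells and 19331.66 in forebrain, a ratio of 0.801 (0.756 to 0.848). *Snord67*, which guides methylation of the spliceosomal U6 RNA and lies in *Ckap5*, stood at 1671.82 and 1859.56, a ratio of 0.899 (0.730 to 1.10). *SNORA54* in *Nap1l4* stood at 6133.18 and 6726.86, a ratio of 0.912 (0.825 to 1.01). The interval excluded equal values for *SNORA79* alone. The hosts of all 3 were lower in ES cells too, with log2 ratios of -0.43 for *Gtf2a1*, -0.54 for *Ckap5* and -0.71 for *Nap1l4*. *Snord67*, however, overlaps an annotated exon of *Ckap5*, which stood at 3127.65 and 4548.62. Reads of the host cannot be told apart from its own, whereas *SNORA79* and *SNORA54* lie in introns. A *SNORA67* gene on chromosome 7 was nearly equal in both samples, at 289.36 and 284.55 (37 and 54 reads).

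The position of each gene relative to other genes was then examined. A host, here a gene of another class on the same strand that contains the whole snoRNA gene, was found for 101 of the 175 members. Of these, 62 lay in introns and 39 overlapped an annotated exon of the host, where reads of both cannot be told apart. Genes with a host had a median ES cell RPKM of 3438.07, and the 74 without had 74.73. The gap was larger in the H/ACA class (11685.44 against 42.48) than in the C/D class (2304.18 against 374.40). Of the 52 genes with fewer than 20 reads, 40 had no host. Among genes with at least 20 reads, however, the ratios between the samples were close. Of 89 genes with a host, 75 were called higher in ES cells, with a median log2 ratio of 1.54, and of 34 without, 25 were called, with a median of 1.56. Of all genes, 19.5% were called.

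The 89 genes lie in 46 hosts, 40 of them protein coding. Of the hosts, 38 were higher in ES cells and 23 by at least 2-fold, beside 19.5% of all genes, and 0 were at least 2-fold higher in forebrain, beside 27.3%. Their median log2 ratio was 0.92. The mean log2 ratio of the snoRNA genes exceeded that of the host in 38 of 46 hosts, with a median difference of 0.45. Across the 46 hosts, both ratios were related (Pearson's r 0.52, Spearman's rho 0.64), given here as a description because hosts share libraries. Many also share reads with their snoRNA genes, as 38 of the 89 overlap an annotated exon of the host. The part of shared reads in this relation was not tested. The 11 ribosomal protein hosts, with 21 snoRNA genes, had log2 ratios from 0.54 to 1.92, and in 9 of them the snoRNA genes exceeded the host.

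**Figure D3:**
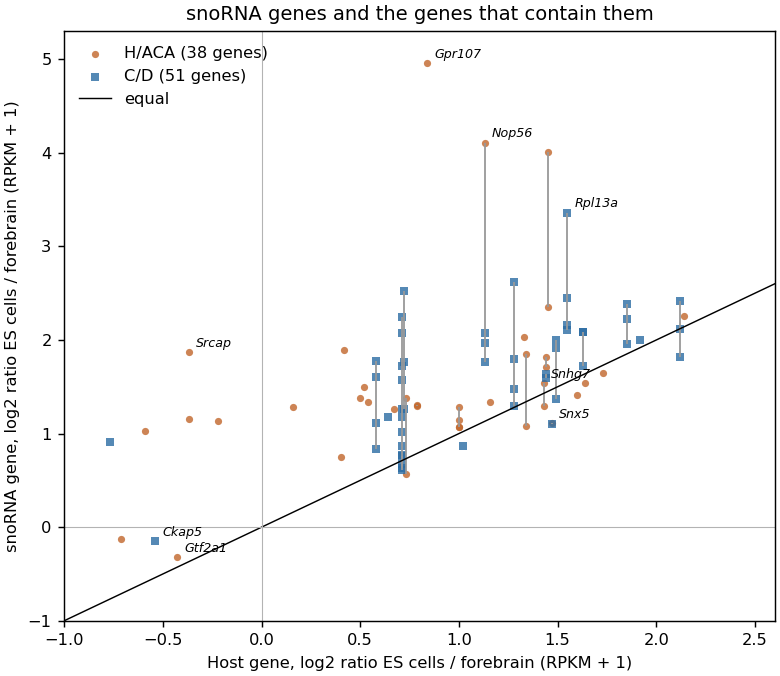
log2 ratio of ES cells to E10.5 forebrain (RPKM + 1) of each of 89 snoRNA genes with at least 20 reads (vertical axis) against that of its host gene (horizontal axis), with H/ACA genes as circles and C/D genes as squares; grey lines join genes of 1 host and the black line marks equal ratios. Most points lie above the black line, and *SNORA51* of *Nop56* (4.11) and *Snord34* of *Rpl13a* (3.36) stand well above their neighbours.

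Hosts and snoRNA genes could also go opposite ways. Of 8 hosts that were higher in forebrain, 5 carried snoRNA genes that were higher in ES cells. *Snora30* stood at 2174.08 in ES cells and 592.26 in forebrain (log2 ratio 1.87), whereas its host *Srcap*, a chromatin remodeller, stood at 385.34 and 498.05 (-0.37). *SNORA26* stood at 20835.64 and 10184.35 (1.03), and its host *Ctage5* at 503.48 and 760.36 (-0.59). A *SNORA48* gene stood at 11150.87 and 5079.68 (1.13), and its host *Sec24a*, a coat protein of secretory vesicles, at 75.50 and 87.89 (-0.22). The same held for *SNORA32* in *Top2a* (1.16 and -0.37) and for *SNORD62* in *Prrc2b* (0.91 and -0.77). Each of these 5 snoRNA genes is 97.2% to 98.8% identical to a snoRNA gene elsewhere, such as the *SNORA48* gene of *Eif4a1* (26061.00 and 10604.75) for that of *Sec24a*, and reads that match both cannot be assigned to 1 host. *Snx5* went the other way, since its 2 snoRNA genes (1.10 and 1.11) were less different between the samples than the host (1.47).

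Ratios also varied among the genes of 1 host. In the 11 hosts with at least 3 snoRNA genes, the log2 ratios spanned from 0.21, for the 3 *SNORA71* genes of the non-coding gene *9430008C03Rik*, to 2.34 in *Nop56*. The 3 *Snord1* genes of *1810032O08Rik* spanned 0.60 around 2.12, the ratio of the host itself. The 3 genes of *Gnb2l1* spanned 1.26, from *Snord96a* (1.26) to *Snord95* (2.52), both above the host (0.72). In *1810032O08Rik* and *Gnb2l1*, all of these genes overlap an annotated exon of the host, so reads of both cannot be told apart.

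The brain-type families were listed with few reads in either sample. Of 137 *Snord115* genes annotated on chromosome 7, with 57 different sequences, 1 was listed. It had 0 reads in ES cells, which allows up to 3.69 reads, and 1 read in forebrain (RPKM 10.4), below the level that could be interpreted. Of 27 annotated *Snord116* genes, 18 of which are identical, 7 were listed. Together they had 5 reads in ES cells (1.62 to 11.7) and 7 in forebrain (2.81 to 14.4), and no copy exceeded an RPKM of 17.3 in ES cells and 20.3 in forebrain. The summed RPKM of 64.94 and 60.99 gave a ratio of 1.07 with an interval from 0.267 to 3.90, so that a difference was not detectable at this depth. How reads that match many copies were counted is not given in the sources used here, and with up to 33 identical *Snord115* genes and 18 identical *Snord116* genes such reads may be missing from these values. All 7 listed *Snord116* genes have both boxes, and several values were fractions of a read.

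The other C/D genes of this region were listed with far higher values. *Snord64*, which lies upstream of the *Snord116* array on the same strand, stood at 2405.29 in ES cells and 1454.80 in forebrain, 1.65-fold (1.28 to 2.14). *SNORD107*, about as far upstream, stood at 2738.23 and 830.79, 3.30-fold (2.48 to 4.43). In each sample, *Snord64* alone thus exceeded the sum of all listed *Snord116* genes, from which reads that match many copies may be missing. The true levels of both can therefore not be ranked. Neither has a host in the annotation used. Of the imprinted protein-coding genes nearby, *Snrpn* was higher in ES cells (422.77 and 265.85). *Ndn* and *Magel2* were far higher in forebrain, with 99.03 and 1851.38, and with 0.26 (1 read) and 51.13. *Ube3a* stood at 1500.39 and 1824.75.

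The *Snord113* family of the imprinted *Dlk1*-*Meg3* region on chromosome 12 was present throughout. All 19 listed copies, spread over 110869284 to 110927754 and without exception on the plus strand, had at least 20 reads over both samples, and 13 were called higher in ES cells, beside 19.5% of all genes. Their log2 ratios ran from 0.63 to 2.82 with a median of 1.29. The summed RPKM was 26339.35 in ES cells and 12971.23 in forebrain, 2.03-fold (1.88 to 2.19). The copy shown above (ENSMUSG00000084691) stood out, with 12843.85 and 8056.23, which is 48.8% of the summed RPKM of these 19 copies in ES cells and 62.1% in forebrain. The other 18 ranged from 271 to 2018 in ES cells, with a median of 598, and from 56.9 to 535 in forebrain, with a median of 218. The ratio of the top copy was 1.59 (1.44 to 1.77), and that of the other 18 summed was 2.75 (2.44 to 3.09), without overlap. The top copy is 97.3% identical to a *SNORD113* gene on the X chromosome, which stood at 5254.68 and 2975.66, and reads that match both cannot be told apart.

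**Figure D4:**
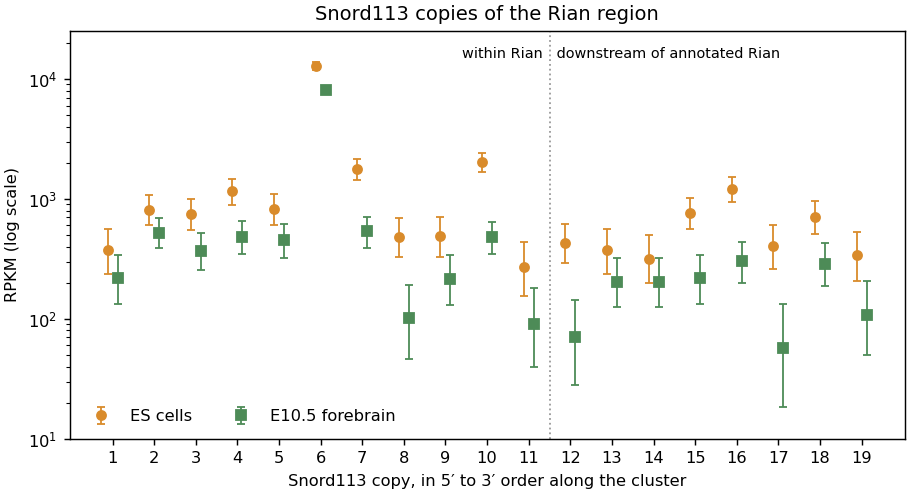
RPKM (log scale) of the 19 *Snord113* copies in ES cells (circles) and E10.5 forebrain (squares), in their order along the cluster, with bars for the exact 95% interval of the counted reads. The sixth copy exceeds all others in both samples, the dotted line marks the end of the annotated *Rian* gene, and ES cells lie above forebrain at every copy, with overlapping bars at several.

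The copies of this family are no longer alike, in contrast to those of *Snord116*, with pairwise identities from 46.7% to 92% and a median of 58.7%. Of the 19, 11 lie within *Rian*, a maternally expressed non-coding RNA, and had a median log2 ratio of 1.18, whereas the 8 downstream of its annotated end had 1.72. The 4 highest ratios of the family were those of ENSMUSG00000064726 (406.96 and 56.88; 24 and 5 reads), ENSMUSG00000065757 (431.77 and 69.92; 29 and 7 reads), ENSMUSG00000064496 (485.00 and 100.98) and ENSMUSG00000064417 (2017.82 and 477.80). The first pair lie downstream of *Rian* and rest on few reads. *Rian* itself stood at 2005.54 and 1229.56 (log2 ratio 0.71) and the downstream non-coding gene *Mirg* at 1276.62 and 817.54. *Meg3* (86.89 and 145.96) and the paternally expressed *Dlk1* (0.22, from 1 read, and 412.08) were higher in forebrain. *SNORD112*, the first of the array, had 4 and 5 reads (63.42 and 53.19), and no *Snord114* gene was listed under that name.

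Many members belong to families in which 1 copy held most of the signal of the copies on the 4 chromosomes. The *Snora17* family has 612 annotated genes, 105 of them on the 4 chromosomes and 22 listed. The gene in *Snhg7* stood at 33958.92 in ES cells and 13781.50 in forebrain and held 97.7% and 97.1% of the summed RPKM of these 22. A *SNORA17* gene on chromosome 16, 91.67% identical to it, is not among them and stood at 11017.56 and 4427.64. The other 21 of the 22 are 68.2% to 86.4% identical to the *Snhg7* gene and stood at 0 to 300.99 and 0 to 125.70. Of these 21, 13 had under 3 reads in both samples. Neither the *Snhg7* gene nor any of the 21 has an ACA exactly 3 bases before the annotated end. The most read of the 21, shown above, is 85.6% identical to the *Snhg7* gene and had 32 and 20 reads. In it and in the *Snhg7* gene, an ACA stands 1 base nearer to the annotated end. The others were not searched there. *SNORA70* was alike on these chromosomes, as the *Snx5* gene held 99.9% and 99.6% of the signal of 4 listed copies. Outside them, however, a *SNORA70* gene on chromosome 16 stood at 51473.88 and 31838.32. A *Snora70* gene on the X chromosome, 90.58% identical to the *Snx5* gene, stood at 21104.22 and 13955.52. The 3 *SNORA3* genes of the 4 chromosomes stood closer together, between 27233.67 and 52816.60 in ES cells and between 8346.03 and 14938.94 in forebrain.

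**Figure D5:**
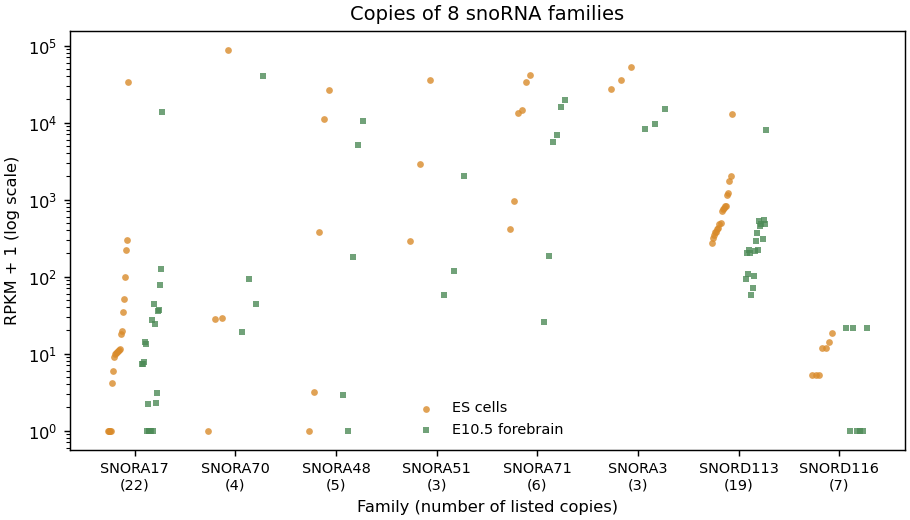
RPKM + 1 (log scale) of each listed copy of 8 snoRNA families in ES cells (circles) and E10.5 forebrain (squares), with the number of copies under each name. In *SNORA17* and *SNORA70* a single copy stands far above the rest in both samples, all 3 *SNORA3* copies are high, and the *SNORD116* copies stay near the level of 1 read.

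The difference between the samples was also seen in genes without a near-identical copy. Of the members, 50 are at least 90% identical to another annotated snoRNA gene, 42 of them with at least 20 reads. Of the 81 others with at least 20 reads, 63 were called higher in ES cells, beside 19.5% of all genes, with a median log2 ratio of 1.57.

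The genes of the proteins that build snoRNA particles were also shifted to ES cells, by less than the RNAs. Of 20 such genes, 18 were higher in ES cells, 7 at least 2-fold (19.5% of all genes), and 0 were 2-fold higher in forebrain, with a median log2 ratio of 0.83. Among the 4 core proteins of C/D particles, *Nop56* (2.19-fold) and *Nhp2l1* (154.12 and 70.24, 2.19-fold) passed a fold of 2, whereas *Nop58* (5987.63 and 3138.16) and *Fbl*, the methylase (994.03 and 671.83), did not. Of the H/ACA core, *Nhp2* stood at 3960.36 and 1251.51 (3.16-fold, 2.99 to 3.35), and *Dkc1*, the pseudouridine synthase, at 3202.55 and 1710.45 (1.87-fold, 1.82 to 1.93). *Nop10* (2253.30 and 1440.85) and *Gar1* (539.56 and 467.13) were closer. Of the 11 assembly and transport factors, *Nufip1* (2.21-fold), *Znhit6* (2.10-fold) and *Shq1*, the chaperone of dyskerin (1758.56 and 683.39, 2.57-fold), passed. *Rrp9*, a protein of the U3 particle, stood at 3383.15 and 1057.94 (3.20-fold, 3.07 to 3.33). The 2 genes lower in ES cells were *Rpap3* (334.50 and 422.59) and *Tgs1*, which modifies RNA caps (193.33 and 278.84).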

How the data were processed

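The authors mapped single-end reads of rRNA-depleted, strand-specific libraries to NCBIM37 (mm9) with the HTSstation pipeline and deposited 1 RPKM value per gene for 1 sample of ES cells and 1 of E10.5 forebrain. The submitters' processing notes name Bowtie 0.12.7. How reads with several positions were counted, whether counting used the strand and how samples were scaled are not given in the sources used here. The read length is given as 100 bp in the labels and 50 bp in the methods. The deposited values are 52.2 times (ES cells) and 49 times (forebrain) those that the usual RPKM formula gives with the reads inferred here, so they were only used relative to each other. Genes at 0 in both samples are not listed.

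The members and gene lists were chosen with earlier results of these data known. Exonic lengths came from GENCODE vM1 on the same build, which holds all 29311 genes. The RPKM of 1 read was found from the low values. Of member values below 1000 reads, 68.3% of 123 in ES cells and 63.6% of 132 in forebrain were within 0.05 of a whole read (10% by chance), and others were fractions. Read inference and calls were checked on simulated whole reads, without reads shared among copies, so the check does not cover the fractional values. Ratios were taken on RPKM + 1, over genes with at least 20 reads in total, and a fold of 2 was called. No test was made, as each group has 1 sample. Intervals are exact Poisson and binomial 95% intervals of counted reads, except those of medians, which are order-statistic intervals over genes. Identities are global alignments with edlib 1.3.9.post1. Named genes were the imprinted families, the 10 highest members per class, the 10 largest folds per direction with at least 50 reads, their hosts and the particle proteins. Not all of them are described, and the genes of other families, hosts or reads were picked after their values were seen. Python 3.11.15, numpy 2.4.6, pandas 2.3.3, scipy 1.17.1 and matplotlib 3.10.9 were used.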

Additional observations from a re-analysis of the deposited data

How the results depend on the processing

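The count of 100 genes called higher in ES cells stayed within 1.5 times under other pseudocounts, read minimums and scalings (80 to 124). It was 66 of 85 without overlap with an exon of another gene, 63 of 81 under 90% identity to other snoRNA genes and 31 at a fold of 4, all of which test fewer genes or a larger fold. The count higher in forebrain was 0 except without any filter on reads, where it was 17 of 175. The median log2 ratio of H/ACA genes was 1.13 after division by the sum of RPKM, a scaling that moved the median of all genes from -0.10 to -0.37 and the members' median to 1.27. The ratio of summed RPKM, whose counting interval is narrow, moved with each scaling. For H/ACA genes it was 2.08 by the sum of RPKM, 2.35 by the inferred reads on genes, 2.67 by the upper quartile, 2.68 by the median ratio and 2.69 without the highest gene. For C/D genes it was 1.53, 1.73, 1.96, 1.97 and 2.05. The *Snord116* ratio of 1.07, whose interval includes 1, was 0.881 by the sum of RPKM and 0.998 by the inferred reads, and no other group value changed direction. Of the 123 genes, 2 (a *SNORA40* gene with a log2 ratio of 0.20 and the *SNORA67* gene with 0.02) changed direction under a scaling. The minimum in each sample and the identity limit were chosen after seeing the data. *Snord115* gave no ratio, being at 0 reads and 1 read. No paired analysis was possible because each group has 1 sample.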

Other observations

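A further 52 members, 39 H/ACA and 13 C/D, had fewer than 20 reads over both samples and entered no count of genes past a fold except the one without a filter on reads. Of the 175 members, 150 were above 0 in both samples, 14 in ES cells only and 11 in forebrain only, and none of the latter 25 exceeded 3 reads. The C/D genes among the 52 outside the imprinted arrays were chosen after their values were seen. *SNORD124* in *Med24* had 6 reads in ES cells and 13 in forebrain, *SNORD125* in *Ap1b1* 1 and 6, *Snord90* in *Rc3h2* 6 and 9, and *SNORD127* in *Prpf39* 7 and 1. Their ratios had counting intervals from 0.214 to 1.94, from 0.00540 to 2.05, from 0.291 to 3.13 and from 1.34 to 470.4.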
